A study of Mus musculus with 147 samples.

Results

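The collagen genes are described here in the male germline and gonad of the mouse. They were taken as the genes of the deposited count table whose symbol reads Col, a number, a and a number, which gave 44 of 31053 genes. The rule uses the symbol and no measured value, though it was set with earlier results of these data known. Single cells of 28 time-points from embryonic day (E) 6.5 to the adult were sequenced at the 3′ end by a modified STRT-seq, in which each transcript carries a unique molecular identifier (UMI). Because a molecule is counted once whatever its length, levels of different genes are set side by side in CPM, the UMIs of a gene scaled to a fixed total of UMIs in the pool. Cells that share a time-point, a genotype and a replicate form a pool if there are at least 10 of them, and replicates of fetal stages combine the gonads of several embryos whereas a replicate after birth is 1 mouse.

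Wild-type cells came from offspring of C57BL/6 females and males with the reporters Blimp1-mVenus and Stella-ECFP (BVSC), and all fetal groups carry these reporters. Fetal somatic cells are the reporter-negative sorting gate of E11.5 to E18.5 gonads, called Negative as in the deposited table of cells (572 cells in 16 pools), and fetal germ cells are those of the reporter-positive gates of the same time-points (1363 cells in 16 pools). The gate is only as good as the reporter, and Negative pools held 61.02 to 596 CPM of summed germ cell markers (against 1582 to 4065 CPM in germ pools). After birth there was no gate for somatic cells: single cells were picked by the look of germ cells. The 750 cells of postnatal day (PND) 0 to PND14 with Ddx4, an RNA helicase of germ cells, under 150 CPM are used as somatic cells and called low-Ddx4, and the other cells are called high-Ddx4. The low-Ddx4 pools also held germ cell markers, with 151 to 391 CPM from PND0 to PND2, 298 to 767 CPM from PND5 to PND8 and 379 to 1464 CPM from PND10 to PND14, against 1356 to 3096 CPM in high-Ddx4 pools. Cells of E6.5 and E7.5 embryos (1626 cells), reporter-positive cells of E8.5 to E10.5 (685 cells), and Negative cells of Helq null gonads, in which the HELQ helicase gene was mutated with CRISPR/Cas9 in BVSC stem cells, stand beside them. Since the Helq deletion lies in its first exon and reads come from the 3′ end, its counts cannot check the genotype. Male embryos were chosen by PCR for Sry at E10.5 and E11.5. No sexing is described for earlier stages, and some cells of E10.5 are not labelled male, so these cells may include females.

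Collagens are extracellular proteins built as triple helices of 3 chains. Fibrillar collagens form the cables of connective tissue, type IV chains form the sheet of basement membranes, type VI chains form beaded filaments around cells, and FACIT collagens decorate fibrils. In the fetal testis, germ cells and Sertoli cells are enclosed in cords by a basement membrane, outside which lies an interstitium with fibroblast-like, peritubular myoid, Leydig and endothelial cells.

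All 44 genes had UMIs in the table, from 2372 for Col10a1 to 184927 for Col18a1. By structure they are 11 fibrillar chains, 6 chains of the basement membrane network, 6 of beaded filaments, 9 FACITs, 4 transmembrane collagens, 3 short chains, the 2 multiplexins Col15a1 and Col18a1, the anchoring fibril chain Col7a1, and the 2 others Col26a1 and Col28a1. The type IV genes lie in pairs, head to head, in mm10, and their spacing is as the GENCODE M21 annotation gives it. The starts of Col4a1 (chr8:11198423-11312826, minus strand) and Col4a2 (chr8:11312805-11449287, plus strand) overlap by 22 bases, those of Col4a4 (chr1:82448423-82586849, minus) and Col4a3 (chr1:82586921-82722059, plus) are 71 bases apart, and those of Col4a6 and Col4a5 on the X chromosome are 1308 bases apart.

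The sequence between Col4a4 and Col4a3 is printed because both genes are read from it in opposite directions and their levels are compared below. The 250 bases before the RefSeq start of Col1a2 and Col3a1 are shown as those of the most abundant somatic chains, and of Col20a1 as a chain that was high in sorted spermatids. All come from RefSeq on GRCm38.p6 (the same assembly as mm10), and capitals mark the motif TATAAA of many tissue-specific promoters, the CCAAT motif to which NF-Y binds, and the GGGCGG motif to which Sp1 binds, searched on both strands and with no overlap between the motifs in these windows.
Col4a4 to Col4a3, chr1:82586850-82586920, minus strand: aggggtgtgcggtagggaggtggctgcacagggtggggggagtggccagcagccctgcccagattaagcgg
Col1a2, chr6:4505368-4505617, plus strand: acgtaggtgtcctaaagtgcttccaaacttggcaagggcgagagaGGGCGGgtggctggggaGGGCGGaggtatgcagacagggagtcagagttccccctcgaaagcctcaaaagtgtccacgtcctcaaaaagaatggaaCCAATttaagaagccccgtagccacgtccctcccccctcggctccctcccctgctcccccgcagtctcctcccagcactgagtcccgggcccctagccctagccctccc
Col3a1, chr1:45311288-45311537, plus strand: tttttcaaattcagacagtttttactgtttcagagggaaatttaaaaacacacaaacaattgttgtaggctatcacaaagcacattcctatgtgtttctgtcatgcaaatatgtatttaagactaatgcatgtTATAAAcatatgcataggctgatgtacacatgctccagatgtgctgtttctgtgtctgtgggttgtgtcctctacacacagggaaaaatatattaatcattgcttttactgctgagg
Col20a1, chr2:180986285-180986534, plus strand: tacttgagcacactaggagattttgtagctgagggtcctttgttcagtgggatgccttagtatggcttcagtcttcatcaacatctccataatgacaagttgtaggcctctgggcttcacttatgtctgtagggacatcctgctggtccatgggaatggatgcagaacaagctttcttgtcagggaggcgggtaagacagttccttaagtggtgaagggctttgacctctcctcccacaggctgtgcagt
Col1a2 had 1 CCAAT and 2 GGGCGG in its window, Col3a1 had 1 TATAAA, and none of the 3 motifs was found before Col20a1 or between Col4a4 and Col4a3. RefSeq held 38 such windows for 35 of the collagen symbols. TATAAA was in 5 of these 38 and in 12.4% of all 32851 windows, CCAAT in 13 and 33.8%, and GGGCGG in 22 and 32.7%.

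Collagen levels were highest in somatic cells. The 44 genes summed to 3157 ± 1618 CPM over the 16 Negative pools (SD), from 676 and 693 CPM in the pools of E11.5 to 6684 CPM in E18.5 replicate 1. In germ cells the sum lay between 124.5 and 195 CPM from E11.5 to E14.5. It reached 447 and 239 CPM at E15.5, and 611 to 1134 CPM from E16.5 to E18.5. The Negative pools thus lay above the germ pools of their own time-point at each of the 8 time-points, with the narrowest gap at E17.5, where Negative pools had 1170 and 2344 CPM and germ pools 1134 and 992 CPM. After birth, low-Ddx4 pools of PND0 to PND2 had 2589 to 4743 CPM and those of PND10 to PND14 had 367 to 2130 CPM. Germ cell markers in these low-Ddx4 pools averaged 269 CPM in the first and 917 CPM in the second period, and markers of interstitial and peritubular myoid cells 1613 and 355 CPM, and their part in the lower sum was not tested. High-Ddx4 pools had 145.3 to 896 CPM from PND0 to PND14 and 189 to 478 CPM from PND30 on.

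**Figure D1:**
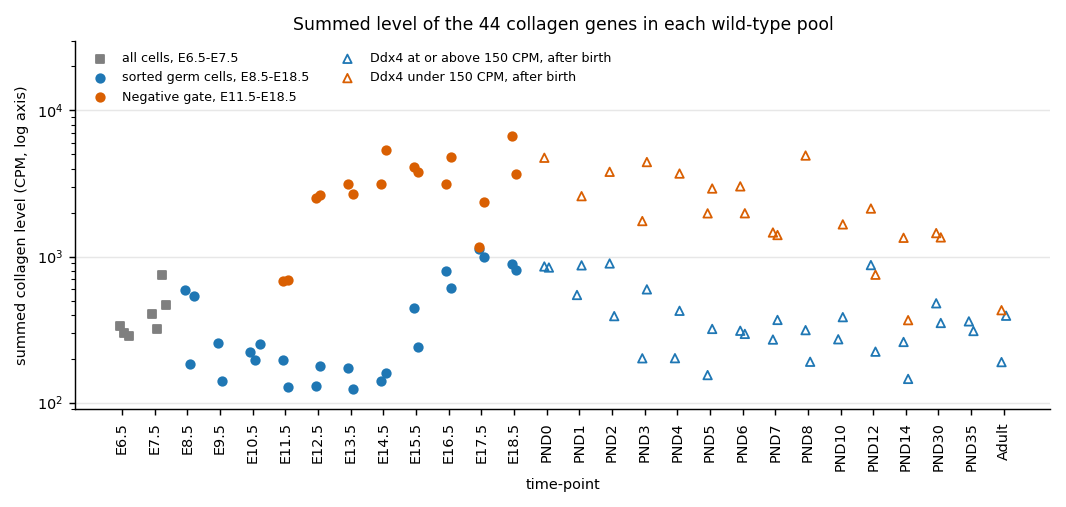
Summed level of the 44 collagen genes (CPM, log axis) against time-point, with 1 point per wild-type pool and the cell group given by colour and marker. Negative pools lie above the germ pools of their own time-point, while the ranges of the somatic and germ groups overlap across time-points. Germ pools from E11.5 on sit at 124.5 to 195 CPM until E14.5 and at 611 to 1134 CPM from E16.5 to E18.5.

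The composition of the sum also differed between the cells. In Negative cells fibrillar chains made 50.8% of the summed level, basement membrane chains 15.7%, beaded filament chains 15.2% and FACITs 8.21%. In germ cells the order changed with the stage. At E11.5 and E12.5 multiplexins, nearly all of it Col18a1, made 57.8% of the germ cell sum, FACITs 13.2% and fibrillar chains 13.02%. From E16.5 to E18.5 fibrillar chains made 33.1%, FACITs 16.7%, beaded filament chains 16.3%, transmembrane collagens 11.3% (against 3.01% in Negative pools of the same days) and multiplexins 3.27%. These are shares of mean levels over 16 Negative pools, 4 early and 6 late germ pools.

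**Figure D2:**
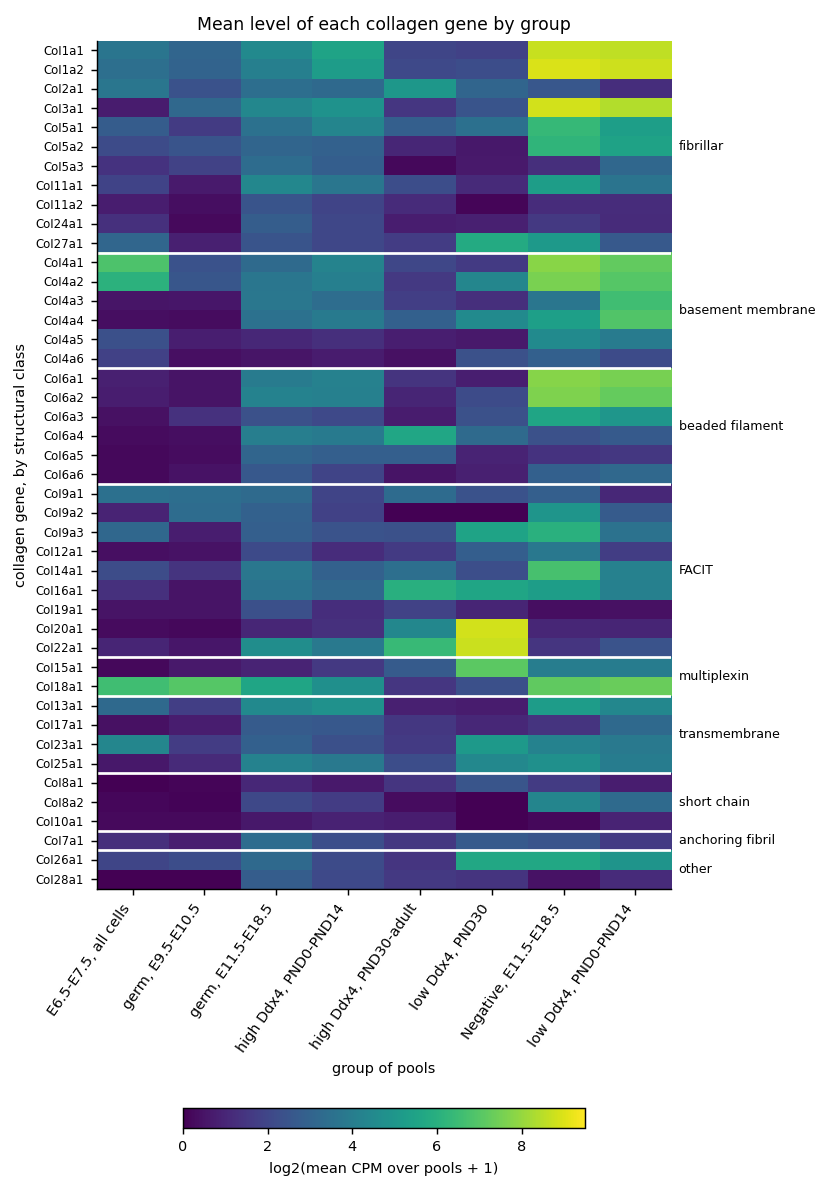
Mean level of each of the 44 genes, log2(mean CPM over pools + 1), in groups of pools (columns), with genes ordered by structural class (lines). Brighter colours are higher levels. Col1a1, Col1a2 and Col3a1 are the brightest lines in the Negative and low-Ddx4 columns, Col18a1 is seen in nearly all columns, and Col20a1 and Col22a1 stand out in low-Ddx4 cells of PND30.

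To ask which collagens separate somatic from germ cells of the fetal gonad, Negative and germ pools of E11.5 to E18.5 were compared with edgeR's quasi-likelihood test, with time-point as covariate and Benjamini-Hochberg adjustment over all 15243 genes tested. Of 39 collagen genes tested, 27 were higher and 4 lower in Negative cells at an adjusted p under 0.05, where 29.9% of all genes were higher and 33.1% lower. The median log2 fold change was 3.19 over the collagen genes and -0.07 over all genes. Col8a1, Col10a1, Col19a1, Col20a1 and Col28a1 were too low to be tested. All 6 basement membrane chains, 7 of 11 fibrillar chains, 5 of 7 FACITs, both multiplexins, 3 of 6 beaded filament chains and 2 of 4 transmembrane collagens were among the higher genes. In pooled cells, fewer cells of a type and less RNA per cell cannot be told apart.

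The chains of type I and type III fibrils differed most. Col1a2, the second chain of type I collagen, ranged from 42.97 CPM over a median of 429 to 1140 CPM in the 16 Negative pools and from 0.40 over 6.39 to 93.1 CPM in the 16 germ pools. The lowest Negative pool is E11.5 replicate 1 and the highest germ pool is E17.5 replicate 1, and the ranges overlap only through these early and late pools. The means were 497 ± 311 and 15.98 ± 23.6 CPM (SD), and the log2 fold change was 5.96 (standard error 0.52, adjusted p = 1.15e-10). Col3a1, the chain of reticular fibres, had 68.2, 410 and 919 CPM as its lowest, median and highest value in Negative pools and 0, 6.02 and 97.8 CPM in germ pools, which gave 5.68 on the log2 scale (standard error 0.62, adjusted p = 8.29e-09). Col1a1, the first chain of type I collagen, had 23.9, 336 and 915 CPM in Negative pools and 0.09, 8.83 and 96.7 CPM in germ pools, which gave 5.18 (standard error 0.50, adjusted p = 8.71e-10). At each time-point both Negative pools exceeded both germ pools for these 3 genes, except for Col3a1 at E17.5, where Negative replicate 1 (90.8 CPM) lay under germ replicate 1 (97.8 CPM).

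In the basement membrane network the 2 ubiquitous chains led. Col4a1 had 39.3, 236 and 560 CPM as lowest, median and highest value in Negative pools and 0.81, 6.29 and 48.7 CPM in germ pools (log2 fold change 5.14, standard error 0.49, adjusted p = 6.08e-10). Col4a2, its partner chain, was at 191 ± 111.2 and 12.3 ± 13.01 CPM (log2 fold change 4.62, standard error 0.43, adjusted p = 3.85e-10). The X-linked chain Col4a5 was lower but as far apart, 22.2 ± 15.3 against 1.06 ± 1.08 CPM (log2 fold change 4.99, standard error 0.67). Col4a3 and Col4a4, chains of specialised basement membranes, differed less. The log2 fold change was 2.91 for Col4a4 (40.1 ± 51.3 against 10.6 ± 13.2 CPM, adjusted p = 0.00177) and 1.91 for Col4a3 (adjusted p = 0.0315), whose means, 12.2 ± 9.34 and 12.7 ± 14.6 CPM, were close, with most of its germ cell level in the late germ pools. With the pool as a block, the fit that pairs Negative and germ cells of the same gonads, Col4a3 (adjusted p = 0.134) and the transmembrane chain Col13a1 (adjusted p = 0.0841) no longer passed.

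Of the beaded filament chains, Col6a1 (218 ± 143.6 against 14.55 ± 18.1 CPM, log2 fold change 4.95) and Col6a2 (201 ± 156 against 17.4 ± 20.2 CPM, log2 fold change 4.74) were higher in Negative cells, and so was Col6a3 at a lower level (46.98 ± 38.5 against 4.06 ± 2.85 CPM). Col15a1, a multiplexin of basement membrane zones, had a log2 fold change of 4.51, Col5a2, a regulator of fibril width, 4.33, Col27a1, a fibrillar chain, 3.92, and Col26a1 3.79. Col18a1, the multiplexin from which endostatin is cut, had the highest germ cell mean of all the collagen genes over these stages. It was at 145.8 ± 71.1 CPM in Negative and 46.7 ± 32.5 CPM in germ pools (log2 fold change 1.90, standard error 0.24, adjusted p = 7.38e-08). From E16.5 to E18.5 its germ cell mean was 26.5 CPM, below those of Col1a1 (48.7 CPM) and Col11a1 (48.2 CPM), among others.

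The 4 genes that were higher in germ cells lay at low levels, and those under 10 CPM are named after their values were seen. Col5a3, a minor fibrillar chain, had 0, 0.46 and 8.21 CPM as lowest, median and highest value in Negative pools and 3.11, 7.99 and 24.2 CPM in germ pools (log2 fold change -3.12, standard error 0.57, adjusted p = 2.90e-05). Col6a5 (adjusted p = 0.00554), Col6a4 (4.08 ± 5.65 against 15.7 ± 16.4 CPM, log2 fold change -1.56, adjusted p = 0.00788) and Col9a1 (adjusted p = 0.0160) followed. This count depends on the stage. In fits of the stages apart, chosen after the data were seen, only Col5a3 was lower in Negative cells from E11.5 to E14.5, where 30.8% of all genes were lower, but 11 of 42 genes tested were lower from E15.5 to E18.5, where 33.7% of all genes were. Col22a1, a FACIT of tissue junctions, then had 1.31 ± 1.65 CPM in Negative and 45.3 ± 23.4 CPM in germ pools (log2 fold change -5.19, standard error 0.73), and the others were Col2a1, Col7a1, Col9a1, Col11a2, Col17a1, Col24a1, Col28a1, Col5a3, Col6a4 and Col6a5. Over all stages Col22a1 had an adjusted p of 0.0605, and of 0.0215 with the pool as a block.

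**Figure D3:**
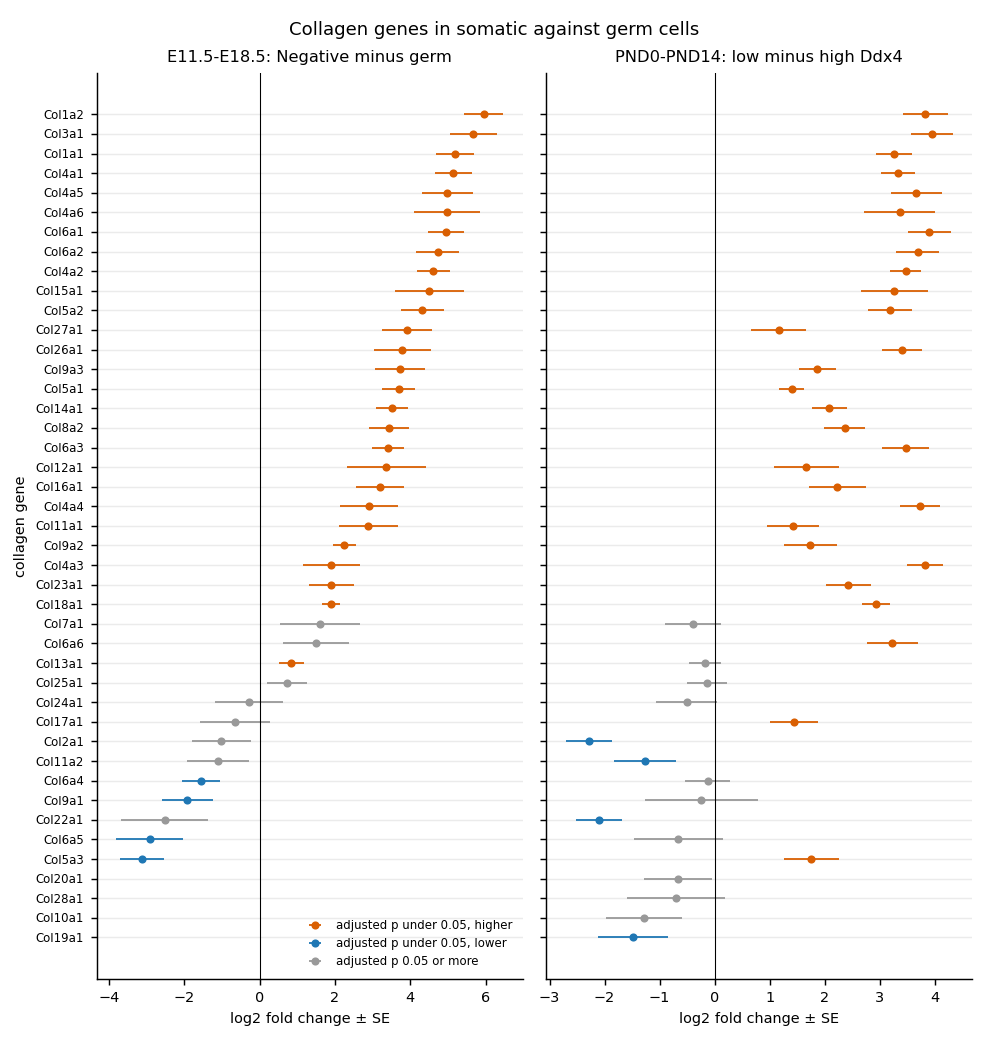
Log2 fold change with its standard error for each collagen gene tested (1 line per gene), for Negative against germ cells of E11.5 to E18.5 (left) and low-Ddx4 against high-Ddx4 cells of PND0 to PND14 (right), coloured by call at an adjusted p of 0.05. Fetal log2 fold changes run from 5.96 for Col1a2 to -3.12 for Col5a3, and postnatal ones from 3.95 for Col3a1 to -2.29 for Col2a1.

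Genes that act with collagens were compared as well. Of 52 tested members of a list of 59 enzymes, crosslinkers, proteases, receptors and matrix partners, 39 were higher in Negative cells and 1 was lower, where 29.9% of all genes were higher and 33.1% lower. Bgn (biglycan, 225 ± 151 against 5.51 ± 11.8 CPM, log2 fold change 6.33) and Dcn (decorin, 402 ± 321 against 7.47 ± 13.2 CPM, log2 fold change 6.54), proteoglycans that bind fibrils, and Fmod (fibromodulin, log2 fold change 7.22, 12.9 ± 10.2 CPM in Negative cells) had the largest values. Pcolce2, an enhancer of procollagen processing, was the one that was lower (0.92 ± 1.33 against 16.2 ± 7.84 CPM, log2 fold change -4.55, adjusted p = 4.09e-08).

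The same question was put after birth, where low-Ddx4 and high-Ddx4 cells of PND0 to PND14 were compared (18 against 24 pools, time-point as covariate, 17752 genes). Of 43 collagen genes tested, 29 were higher and 4 lower in low-Ddx4 cells, where 29% of all genes were higher and 41.6% lower, and the median log2 fold change was 1.87 against -0.25 over all genes. All 6 basement membrane chains, both multiplexins, 8 of 11 fibrillar chains, 4 of 6 beaded filament chains and 5 of 9 FACITs were higher. Col3a1 had 18.7, 299 and 846 CPM as lowest, median and highest value in low-Ddx4 pools and 2.97, 21.1 and 116.5 CPM in high-Ddx4 pools (log2 fold change 3.95, standard error 0.38, adjusted p = 3.41e-11). For Col1a2 these were 2.76, 408 and 960 CPM and 6.46, 35.3 and 145.6 CPM (log2 fold change 3.82, standard error 0.41), and for Col1a1 9.67, 386 and 950 CPM and 12.48, 44.4 and 109.3 CPM (log2 fold change 3.25, standard error 0.33). The low ends of the somatic ranges are the pools of PND12 and PND14 replicate 2, which held 0 interstitial-marker cells by the classes given below, and through them the groups overlap.

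Col4a3 and Col4a4 were among the genes that differed most after birth, at a level above that of fetal somatic cells. Col4a3 had 32.9, 87.3 and 217 CPM as lowest, median and highest value in low-Ddx4 pools and 2.92, 6.66 and 31.96 CPM in high-Ddx4 pools, and the groups did not overlap (log2 fold change 3.82, standard error 0.33, adjusted p = 2.21e-12). Col4a4 was at 120 ± 73.5 and 13.8 ± 12.53 CPM (log2 fold change 3.73, standard error 0.36). Col6a1 (log2 fold change 3.902), Col6a2 (3.69), Col4a5 (3.67), Col6a3 (3.47), Col4a2 (3.47), Col26a1 (3.40), Col4a1 (3.33) and Col15a1 (3.26) were higher as well. From PND0 to PND8 alone, without the pools of PND10 to PND14 in which germ cell markers were highest on average, 29 collagen genes were higher and 5 lower (13 against 18 pools, chosen after the data were seen), where 30.3% of all genes were higher and 39.7% lower. Col22a1, at 4.42 ± 8.63 against 13.4 ± 5.07 CPM (log2 fold change -2.11, adjusted p = 3.50e-05), and Col2a1, the cartilage chain, at 1.37 ± 2.15 against 8.51 ± 9.52 CPM (log2 fold change -2.29), were lower, as were Col11a2 and Col19a1 at mean levels under 3 CPM. Without PND1 replicate 2, PND2 replicate 1, PND4 replicate 2 or PND12 replicate 1 the count of lower genes was 2. With the pool as a block, Col11a1 (adjusted p = 0.0800), Col27a1 (0.251) and Col12a1 (0.141) no longer passed. Of the 57 partner genes tested, where 29% of all genes were higher and 41.6% lower, 41 were higher, among them Bgn, Dcn and Sparc (1209 ± 241 against 83.7 ± 63.01 CPM), and 8 were lower, among them Mmp9, the gelatinase, at 5.24 ± 4.96 against 54.7 ± 64.7 CPM.

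Somatic cells of the gonad are of several types, and the share of each differed between pools. Cells were therefore classed by summed marker genes, none of which is a collagen: a cell took the class that held at least 60% of its marker level and at least 100 CPM. Of the 1322 somatic cells of E11.5 to PND14, 561 were Sertoli-marker cells, 561 interstitial-marker cells (markers of interstitial and peritubular myoid cells), 48 Leydig, 14 endothelial, 7 macrophage and 4 erythroid, the rest were left unclassed, and 159 lay within 10 points of the limit. The class is a range of marker level, not a cell type found by clustering, and its values are a description. Sertoli markers had a median of 4309 CPM in Sertoli-marker cells and 102.04 CPM in interstitial-marker cells.

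Interstitial-marker cells carried the higher collagen level. The 44 genes summed to 5661 ± 1502 CPM in 23 pools of interstitial-marker cells and to 1016 ± 553 CPM in 19 pools of Sertoli-marker cells. For Col3a1, Col5a2, Col6a3, Col5a1, Col1a2, Col6a2, Col6a1 and Col1a1, every interstitial pool lay above every Sertoli pool, 8 of 40 collagen genes where 0.76% of all genes did so. Col1a2 had 479, 1140 and 1829 CPM as lowest, median and highest value in interstitial pools and 3.81, 50.1 and 246 CPM in Sertoli pools, and Col1a1 had 259, 968 and 1438 CPM and 1.59, 41.7 and 132.4 CPM. Col6a1 had 90.96, 476 and 687 CPM against 1.59, 43.5 and 76.01 CPM. Taken by window, the collagens whose interstitial pools all lay above the Sertoli pools were 18 of 39 at E13.5 to E15.5 (7.16% of all genes), 16 of 39 at E16.5 to E18.5 (6.83%), 25 of 37 at PND0 to PND2 (18.1%) and 21 of 36 at PND3 to PND8 (7.26%). In the last window these included all 6 type IV chains.

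Col18a1 went the other way. It was the 1 collagen whose Sertoli pools all lay above the interstitial pools, where 0.625% of all genes did so, and it was joined by Col9a3 at E13.5 to E15.5 (7.41% of all genes), by Col9a2, Col9a3 and Col6a6 at PND0 to PND2 (21.5%), and by none at PND3 to PND8 (7.98%). Over all stages it stood at 141.1, 270 and 482 CPM as lowest, median and highest value in Sertoli-marker cells and 0, 28.1 and 93.97 CPM in interstitial-marker cells. Col9a3, a FACIT chain of cartilage, was also in Sertoli-marker cells: from E16.5 to E18.5 it had 117.1 ± 31.1 CPM in 3 Sertoli pools and 5.49 ± 8.91 CPM in 5 interstitial pools, which did not overlap, as for 10.3% of all genes. From PND3 to PND8 its Sertoli level was 16.9 ± 12.3 CPM (6 pools). Col4a1 was higher in interstitial-marker cells, at 79.3 ± 42.8 CPM in Sertoli-marker and 357 ± 120 CPM in interstitial-marker cells. Its interstitial pools all lay above the Sertoli pools at E13.5 to E15.5, E16.5 to E18.5, PND0 to PND2 and PND3 to PND8. In these windows 7.16%, 6.83%, 18.1% and 7.26% of all genes did so. Over all stages its pools of both classes overlapped.

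**Figure D4:**
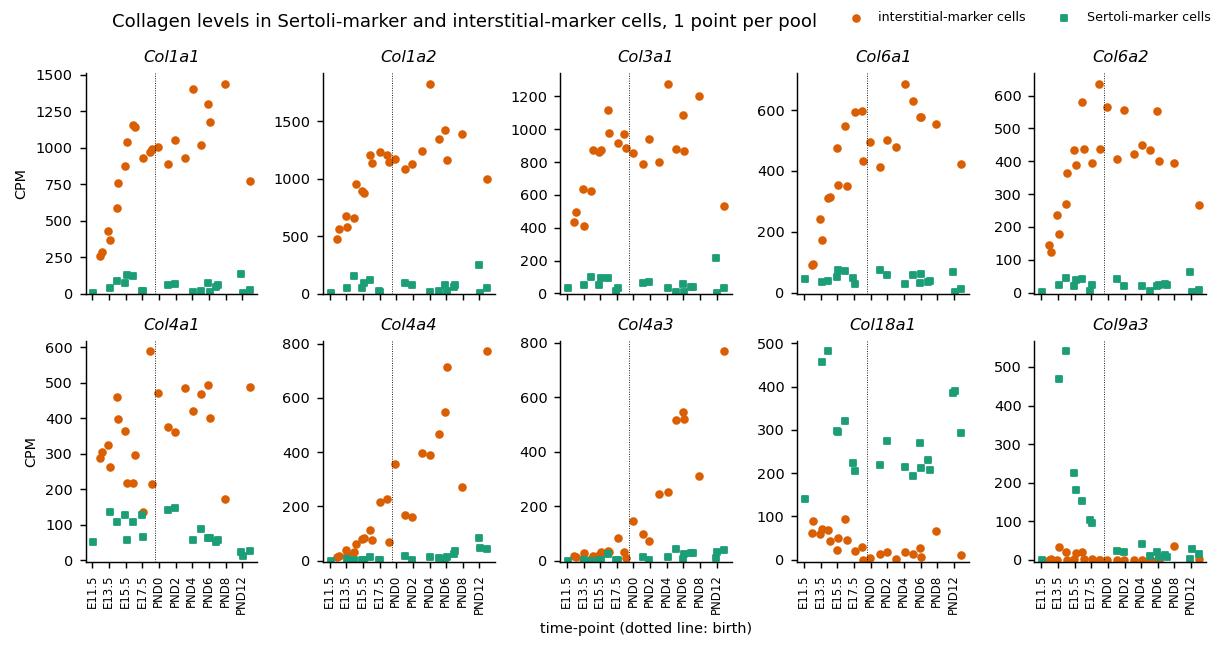
Levels (CPM) of collagen genes in Sertoli-marker cells and interstitial-marker cells against time-point, 1 point per pool, with birth as a dotted line. Interstitial pools of Col1a1 and Col1a2 lie far above Sertoli pools throughout, Col18a1 is the reverse, and Col4a3 and Col4a4 are high in interstitial cells mainly after birth.

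To follow the fetal somatic cells in time, Negative pools of E16.5 to E18.5 were compared with those of E11.5 and E12.5 (6 against 4 pools, 12568 genes). Col1a1 had 25.6 and 23.9 CPM at E11.5, 176 and 179 CPM at E12.5, 468 and 881 CPM at E16.5, 102.8 and 315 CPM at E17.5, and 915 and 689 CPM at E18.5. The late pools lay above the early ones except for E17.5 replicate 1, and with such a spread the log2 fold change of 2.49 (standard error 0.69) had an adjusted p of 0.0946. For Col1a2 it was 1.62 (631 ± 371 against 208 ± 163 CPM, adjusted p = 0.239), for Col3a1 1.15 (525.5 ± 304 against 239 ± 151 CPM, adjusted p = 0.365), for Col4a1 0.50 (adjusted p = 0.769) and for Col4a2 0.42 (adjusted p = 0.793). Of 31 collagen genes tested 1 rose and 0 fell, where 1.08% of all genes rose and 0.278% fell. An unadjusted p under 0.05 was reached by 10 of the 31 collagen genes and by 1877 of all 12568 genes. The one that rose, Col6a4, a beaded filament chain, had 1 UMI in the 4 early pools and 1.298 to 20.8 CPM in the late ones (8.31 ± 7.19 CPM, adjusted p = 0.0266), and was named after its values were seen. It lost the call, leaving 0 genes, when E11.5 replicate 1 or 2, E12.5 replicate 1, E16.5 replicate 1 or 2 or E17.5 replicate 2 was left out, and without E17.5 replicate 1 there were 2 calls. DESeq2 called 4 genes higher, Col6a4, Col1a1, Col6a1 and Col23a1, and 4.12% of all genes. Of the 48 partner genes tested, Dcn (610 ± 376 against 84.9 ± 44.5 CPM, log2 fold change 2.88, adjusted p = 0.0273) and the laminin chain Lama2 (log2 fold change 4.97, adjusted p = 0.0483) rose. These calls were not stable: over the 12 fits with a replicate or pool left out, the 2 genes together lost the call 17 times.

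The makeup of these pools differed as well, and its part in the collagen levels was not tested. The 4 early pools had 574 to 1032 CPM of Sertoli markers and collagen sums of 676 to 2652 CPM. The 2 E17.5 pools had 4244 and 3835 CPM of Sertoli markers and collagen sums of 1170 and 2344 CPM, whereas E18.5 replicate 1 had 324 CPM of Sertoli markers and a collagen sum of 6684 CPM. In interstitial-marker cells alone, an alternative chosen after the data were seen (5 against 2 pools), 6 collagen genes rose and 0 fell, where 0.784% of all genes rose and 0.101% fell. There Col1a1 went from 271 ± 16.46 to 1037 ± 103.2 CPM (log2 fold change 1.99, standard error 0.21, adjusted p = 0.000344). Col6a1 went from 93.4 to 504 CPM (log2 fold change 2.49, adjusted p = 0.000687), Col6a2 from 133.9 to 497 CPM (1.94, adjusted p = 0.00240). Col1a2 went from 521 ± 59.8 to 1186 ± 42.8 CPM (1.25, adjusted p = 0.00425), Col3a1 from 467 to 973 CPM (1.12, adjusted p = 0.0111) and Col4a4 from 15.53 to 140 CPM (3.21, adjusted p = 0.0204). The ubiquitous type IV chains Col4a1 (log2 fold change 0.01, standard error 0.41) and Col4a2 (-0.03, standard error 0.51) did not pass. When a share of 80% of the markers was asked for (2 against 2 pools), the call of Col3a1 was lost (adjusted p = 0.0752).

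Around birth no collagen gene passed the test. Low-Ddx4 pools of PND0 to PND2 (n = 3) and Negative pools of E17.5 and E18.5 (n = 4) had 552 ± 164 and 505 ± 365 CPM of Col1a1 (log2 fold change 0.03), 639 ± 171 and 621 ± 446 CPM of Col1a2 (-0.05). They had 507 ± 158 and 496 ± 364 CPM of Col3a1 (-0.06), 284 ± 61.8 and 240 ± 217 CPM of Col4a1 (0.16), and 210 ± 70.4 and 185 ± 149 CPM of Col4a2 (0.11). In edgeR's test 0 of 34 collagen genes and 0% of all 12537 genes were called, and DESeq2 called 1 gene that is not a collagen. The unadjusted p of edgeR was under 0.05 for 3 of the 34 collagen genes and for 397 of all genes. The groups differ in how cells were chosen (a sorting gate before birth, Ddx4 after it) as well as in age, and these cannot be told apart. With a Ddx4 limit of 300 CPM in place of 150 CPM, which takes cells with more Ddx4 into the postnatal pools, 3 collagen genes were higher (Col2a1, Col5a3, Col6a5) and 5 lower (Col14a1, Col9a3, Col9a2, Col6a1, Col4a2) of 39 tested, where 11.4% of all genes were higher and 7.88% lower.

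To follow somatic cells after birth, low-Ddx4 pools of PND5 to PND8 (n = 7) were compared with those of PND0 to PND2 (n = 3, 13714 genes). None of 34 collagen genes was called by edgeR, where 0.051% of all genes rose and 0.0219% fell. The unadjusted p was under 0.05 for 9 of the 34, all of them lower, and for 1213 of all 13714 genes in either direction. Col25a1, a transmembrane collagen, was at 5.87 ± 7.25 against 49.6 ± 15.6 CPM, with no overlap (log2 fold change -3.03, adjusted p = 0.221), and Col26a1 at 15.9 ± 11.1 against 92.98 ± 54.9 CPM (-2.52, adjusted p = 0.255). DESeq2 called both lower (adjusted p = 0.0172 and 0.0242), as it did 0.386% of all genes. Col4a1 was at 140.96 ± 54.7 against 284 ± 61.8 CPM, again without overlap (log2 fold change -1.004, adjusted p = 0.347). Col1a1 (-0.42), Col1a2 (-0.53), Col3a1 (-0.54) and Col4a2 (-0.88) did not pass either. In interstitial-marker cells alone (4 against 3 pools, chosen after the data were seen), Col4a3 rose from 105.2 ± 38.3 to 473 ± 110 CPM (log2 fold change 2.23, standard error 0.29, adjusted p = 0.00882), the 1 collagen gene called where 0.018% of all genes rose and 0.027% fell. At a marker share of 80%, where 0.0675% of all genes rose, Col4a4 rose beside it, from 242 ± 102.6 to 677 ± 60.7 CPM (log2 fold change 1.58, adjusted p = 0.0416).

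The head-to-head pairs of type IV genes can be followed across the same pools. Over the 16 Negative pools, Pearson's r of log2(CPM + 1) was 0.94 for Col4a1 and Col4a2, 0.85 for Col4a3 and Col4a4, and 0.59 for Col4a5 and Col4a6, and over 18 low-Ddx4 pools it was 0.79, 0.86 and 0.58. These are descriptions of pools that differ in stage and cell makeup, which every pair shares. The ratio of the pair's levels was steady for Col4a1 over Col4a2 (1.18 in Negative and 1.19 in low-Ddx4 pools), whereas for Col4a3 over Col4a4 it was 0.31 and 0.80. In Negative pools Col4a3 and Col4a4 were at 5.10 ± 5.05 and 5.03 ± 5.93 CPM at E11.5 to E12.5, on 69 and 65 UMIs. They were at 10.88 ± 5.55 and 33.1 ± 19.98 CPM at E13.5 to E15.5, and 18.4 ± 11.3 and 70.4 ± 72.9 CPM at E16.5 to E18.5. The means thus lay close together first and apart later. The SD was about as large as the mean for both early levels and for late Col4a4.

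Within the fetal gonad, Negative cells of the distal and proximal parts of E13.5 to E16.5 (8 against 8 pools, time-point as covariate) were compared. None of 30 collagen genes was called by edgeR or DESeq2, and 0% of all 11203 genes were called by edgeR. In edgeR's test 0 of the 30 collagen genes and 580 of all genes had an unadjusted p under 0.05. Col1a2 was at 646 ± 238 CPM in distal and 525 ± 292 CPM in proximal pools (log2 fold change 0.29), Col1a1 at 589 ± 224 and 488 ± 309 CPM (0.22), Col3a1 at 571 ± 236 and 523 ± 302 CPM (0.07), and Col4a1 at 226 ± 115.4 and 235 ± 97.1 CPM (-0.15). Helq null Negative pools likewise gave 0 calls among 34 collagen genes against wild-type pools of the same time-points (9 against 12 pools), where 0.062% of all 12905 genes were higher and 0.031% lower. The unadjusted p of edgeR was under 0.05 for 2 of the 34 collagen genes and for 774 of all genes, and DESeq2 called 0 collagen genes. Col1a2 (534 ± 281 against 510 ± 325 CPM, log2 fold change 0.11), Col4a1 (0.08), Col3a1 (0.05), Col1a1 (0.01) and Col4a2 (-0.23) had standard errors of 0.16 to 0.21.

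Collagens of germ cells were then followed on their own, a comparison added after the levels were seen. Germ pools of E16.5 to E18.5 were compared with those of E11.5 and E12.5 (6 against 4 pools, 20478 genes). Of 44 collagen genes 37 rose and 1 fell, where 46.3% of all genes rose and 26.8% fell, and their median log2 fold change was 3.62 against 0.82 over all genes, a shift that the values here include. At E11.5 and E12.5, 1 collagen gene reached a mean of 10 CPM in germ cells, at E13.5 to E15.5 there were 3, and at E16.5 to E18.5 there were 32, against 22, 27 and 27 in Negative cells. From E16.5 to E18.5, 17 collagen genes had a higher mean in germ than in Negative cells, and 11 stayed under 20% of the Negative level. Some of the 17 lay near the floor, such as Col10a1 (0.39 against 0 CPM) and Col20a1 (2.59 against 1.79 CPM). The share of all genes was not computed for these counts by mean level, so they describe the collagens and do not set them apart from other genes.

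Genes that rose came from each structural class but the multiplexins. Col4a3 had 1 UMI in the 4 early pools and 22.4 to 36.6 CPM in the 6 late ones, above its Negative mean of 18.4 CPM. Col11a1, a fibrillar chain, was at 0.39 ± 0.49 CPM in early and 48.2 ± 17.7 CPM in late pools (log2 fold change 6.57, standard error 0.78). Col16a1, a FACIT, was at 0.22 ± 0.13 and 26.2 ± 5.23 CPM (6.47), Col7a1 at 0.23 ± 0.29 and 22.9 ± 8.97 CPM (6.14), and Col6a4 at 0.57 ± 0.68 and 33.7 ± 9.73 CPM (5.44). For none of these did early and late pools overlap. Col25a1 rose from 1.56 ± 0.75 to 38.01 ± 4.66 CPM (log2 fold change 4.11), with late pools between 33.6 and 47.02 CPM. Col24a1 (log2 fold change 7.39) and Col28a1 (7.33) had 6 and 7 UMIs in the early pools and 14.1 ± 5.98 and 15.8 ± 10.3 CPM in the late ones. Col19a1 (4.98) and Col4a4 (4.84) rose as well.

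Chains that are abundant in somatic cells also rose in the germ pools, where somatic markers were higher as well. Col1a1 had 1.01, 0.65, 1.88 and 1.40 CPM in the early pools and 31.4 to 96.7 CPM in the late ones (log2 fold change 4.82, standard error 0.45, adjusted p = 4.71e-07). Col6a2 went from 0.64 ± 0.69 to 40.4 ± 11.9 CPM (5.56), Col1a2 from 2.13 ± 1.45 to 36.6 ± 28.7 CPM (3.62), Col3a1 from 2.76 ± 1.33 to 48.008 ± 28.7 CPM (3.62), Col4a2 from 3.27 ± 1.93 to 26.6 ± 10.4 CPM (2.56) and Col4a1 from 3.64 ± 2.76 to 17.1 ± 15.9 CPM (1.77, adjusted p = 0.0266). Interstitial markers summed to 45.9 to 77.1 CPM in the early and 76.4 to 254 CPM in the late germ pools, and to 260 to 2923 CPM in late Negative pools. Sertoli markers summed to 39.4 to 86.7 and 138.5 to 1084 CPM in early and late germ pools, the highest in E17.5 replicate 1, which was also the highest in Col1a1. The part of somatic RNA in these levels was not tested. Late germ pools had 5.80% of the Negative level of Col1a2 and 8.67% of that of Col1a1, against 143.01% for Col11a1, 406% for Col6a4 and 2575% for Col22a1.

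Col18a1 was the 1 collagen gene that fell in fetal germ cells. It had 142.2, 128.2 and 127.3 CPM at E8.5, 137.5 and 113.99 CPM at E9.5, 126.8, 130.9 and 115.7 CPM at E10.5, and 124.2 and 90.4 CPM at E11.5. From there it was at 57.4 and 91.3 CPM at E12.5, 25.3 and 47.002 CPM at E14.5, 28.2 and 22.8 CPM at E16.5, and 8.497 and 9.33 CPM at E18.5. The late pools lay below the early ones except for E17.5 replicate 1 at 64.7 CPM, above E12.5 replicate 1 (log2 fold change -2.25, standard error 0.45, adjusted p = 0.000493). Col22a1 had its highest levels in between: it had 0.20, 0.08, 1.45 and 0.12 CPM in the early pools, 10.49 and 8.75 CPM at E14.5, 70.6 and 37.7 CPM at E15.5, 71.8 and 73.003 CPM at E16.5, 30.4 and 41.7 CPM at E17.5 and 19.2 and 18.1 CPM at E18.5 (log2 fold change 6.14 for late against early pools). Of the 57 partner genes tested 35 rose and 11 fell, where 46.3% and 26.8% of all genes did, with the collagen receptors Itga11 (0.06 ± 0.08 to 22.03 ± 5.35 CPM) and Ddr2 (0.10 ± 0.11 to 10.9 ± 3.86 CPM) among the first and fibronectin, Fn1 (173 ± 33.9 to 43.3 ± 7.04 CPM), among the second.

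**Figure D5:**
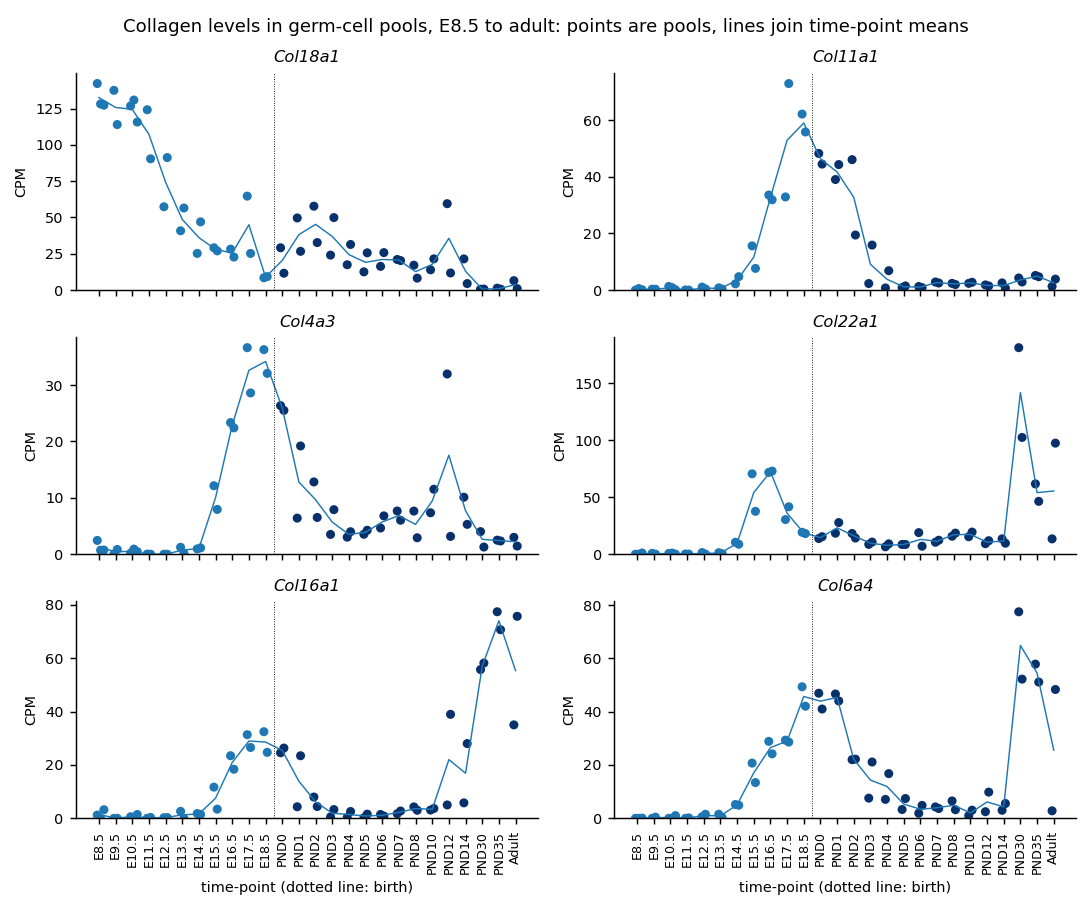
Levels (CPM) of single collagen genes in germ-cell pools from E8.5 to the adult, with points for pools, lines through the time-point means and birth as a dotted line. Col18a1 declines from 142.2 CPM at E8.5 to 8.497 CPM at E18.5. Col22a1 is high at E15.5 and E16.5. From PND30 on its mean is high again, but high-Ddx4 pools run from 13.47 to 181.4 CPM.

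From PND0 to PND14 Col1a1 (44.9 ± 22.2 CPM), Col1a2 (37.1 ± 30.3 CPM) and Col3a1 (28.01 ± 25.4 CPM) had the highest means of high-Ddx4 pools. From PND30 on Col22a1, Col16a1, Col6a4, Col2a1 and Col20a1 had the highest mean levels of high-Ddx4 pools. Col22a1 was at 83.9 ± 58.1 CPM in these pools, which ranged from 13.47 to 181.4 CPM. High-Ddx4 pools had 46.9 and 40.99 CPM of Col6a4 on PND0 and 3.01 and 5.55 CPM on PND14, and 48.3 to 77.5 CPM from PND30 on except in adult replicate 1, with 2.81 CPM. Col16a1 was at 55.8 to 77.5 CPM in the pools of PND30 and later except for 35.04 CPM in adult replicate 1, Col2a1 at 16.7 to 44.2 CPM and Col20a1 at 19.7 to 25.9 CPM, except for 5.84 CPM in adult replicate 1. Col1a1 was at 0.85 to 10.3 CPM and Col13a1 at 0.03 to 3.10 CPM in the same pools. Adult replicate 1 also had 451 CPM of Sertoli markers and 775 CPM of Leydig markers.

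The low-Ddx4 cells of PND30 had more germ cell than somatic markers and are kept apart for that reason. Their 2 pools (31 and 51 cells) had 876 and 926 CPM of germ markers, 38.5 and 147.4 CPM of Sertoli markers and 12.98 and 23.7 CPM of interstitial markers. Col20a1, a FACIT of little known function, was at 509 and 402 CPM, Col22a1 at 448 and 394 CPM, and Col15a1 at 135.2 and 135.9 CPM, whereas Col1a1 was at 1.51 and 3.56 CPM. In the low-Ddx4 pools of PND0 to PND14, Col20a1 did not exceed 7.599 CPM. Most cells of PND30 had been sorted by DNA content, and 1N cells are round spermatids and later stages while 4N cells hold primary spermatocytes. In the 1N, 2N and 4N pools, Col22a1 had 285 and 376, 224 and 133.8, and 97.5 and 36.1 CPM, and Col20a1 had 72.4 and 132.9, 36.2 and 44.6, and 17.8 and 16.1 CPM. For both genes the 1N pools were the highest and the 4N pools the lowest of the sorted pools. Cells entered these pools whatever their Ddx4 level, low-Ddx4 cells included, so these levels are not independent of those given above. Another 192 cells of replicate 2 carry no ploidy in the deposited table and enter no ploidy comparison, and they had 99.98 CPM of Col22a1 and 68.3 CPM of Col20a1.

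The test of 1N against 4N pools (2 against 2, 19167 genes) was added after these levels were seen. Of 40 collagen genes 8 were higher and 0 lower in 1N cells, where 14.1% of all genes were higher and 12.4% lower. Log2 fold changes were 2.79 for Col20a1 (standard error 0.42, adjusted p = 0.0103), 2.49 for Col22a1 (standard error 0.46, adjusted p = 0.0127). They were 2.66 for Col15a1 (35.4 ± 24.4 against 6.45 ± 0.29 CPM, adjusted p = 0.0189), 3.28 for Col27a1 (12.9 ± 7.06 against 1.51 ± 0.52 CPM, adjusted p = 0.0144) and 3.53 for Col26a1 (13.46 ± 13.02 against 1.35 ± 0.28 CPM, adjusted p = 0.0244). The other 3, Col23a1, Col4a2 and Col6a2, were under 7 CPM in both. Col1a1 (0.75), Col1a2 (3.56, adjusted p = 0.0557), Col3a1 (1.47) and Col4a1 (0.15) had means of at most 3.28 CPM and did not pass. Col16a1 was at 40.1 ± 0.45 CPM in 1N and 71.8 ± 3.65 CPM in 4N pools, without overlap, but did not pass (log2 fold change -0.68, adjusted p = 0.125). Of 41 partner genes tested, Timp2, an inhibitor of matrix proteases, was higher (116.2 ± 2.37 against 46.4 ± 11.4 CPM) and P4hb, a subunit of prolyl 4-hydroxylase, was lower in 1N cells (13.2 ± 2.41 against 43.03 ± 4.56 CPM).

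In the early embryo Col4a1, Col4a2 and Col18a1, which are collagens of basement membranes, had the highest mean levels at both days. The 44 genes summed to 284 to 333 CPM in the 3 pools of E6.5 and 317 to 742 CPM in the 4 pools of E7.5. Col4a1 had 102.3, 41.6 and 81.8 CPM at E6.5 and 116.8, 58.97, 286 and 121.01 CPM at E7.5, Col4a2 was at 41.9 ± 16.7 and 86.6 ± 55.8 CPM, and Col18a1 at 116.5, 67.2 and 50.4 CPM and at 92.5, 75.5, 98.5 and 164 CPM. The pools of the 2 days overlapped for each of them. Col1a1 was at 11.8 ± 18.4 and 12.03 ± 8.07 CPM, Col1a2 at 8.78 ± 7.49 and 11.1 ± 3.97 CPM, and Col3a1 did not exceed 1.70 CPM. None of 36 collagen genes was called by edgeR (17409 genes, 0% called), and 2 of the 36 had an unadjusted p under 0.05, as did 680 of all genes. DESeq2 called 1, Col5a3, and 0.19% of all genes as higher. Its levels at E7.5 were 0.04, 0.37, 7.67 and 3.03 CPM, against 5, 1 and 1 UMIs in the 3 pools of E6.5.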

How the data were processed

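Single-cell UMI counts of 13032 cells and 31053 genes were used as deposited. The authors made these counts from STRT-seq reads with UMI-tools, STAR on mm10 and featureCounts, per the labels and the study's methods. GEO's labels give only codes for the libraries, so time-point, gate, genotype and replicate came from the deposited table of cells. Cells with over 2000 genes and 10000 to 1000000 UMIs were kept (11598 wild-type and 1094 Helq null cells). No doublet caller was run, since cells were placed in wells one by one.

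Counts were summed over the cells of a pool with at least 10 cells, and pools, not cells, are the replicates, so p-values measure the spread between pools. Pools held 2457656 to 14846785 UMIs in Negative cells, 20701229 to 40546888 in germ cells, 1202445 to 19241494 in low-Ddx4 cells and 12409411 to 190897809 in high-Ddx4 cells. edgeR 4.0.16 (R 4.3.3, limma 3.58.1) was run with TMM scaling, filterByExpr, the quasi-likelihood test and Benjamini-Hochberg adjustment over all genes tested, at a threshold of 0.05. The script was tested on simulated data. Alternatives were DESeq2 1.42.0 and its size factors, no gene filter, no cell filter, at least 20 cells per pool, Ddx4 limits of 75 and 300 CPM, the pool as a block, and pools or time-points left out. Pools of both classes share their gonads or mouse by design. Over genes of at least 20 CPM, the replicate differences of the classes had r of -0.09 to 0.35 (median 0.14) at 8 fetal time-points and 0.02 to 0.50 (median 0.34) at 7 postnatal ones.

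Genes were named when called with a mean of at least 10 CPM in either group, up to 12 per direction by fold change, besides Col1a1, Col1a2, Col3a1, Col4a1 and Col4a2, with up to 3 partner genes per direction. The members, marker lists and partner list were chosen with earlier results of these data known.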

Additional observations from a re-analysis of the deposited data

Results flagged for a closer look

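In 48 groups of 4 to 10 pools, 9 values lay farther from the other pools than Dixon's 95% limit allows, a limit that chance passes in about 1 of 20 groups. They fell in 3 pools. In Negative cells, E18.5 replicate 1 had 560 CPM of Col4a1, with 236 CPM in the next of the 6 pools of E16.5 to E18.5, and 406 CPM of Col4a2, with 128.6 CPM in the next of the 4 pools of E17.5 and E18.5. This pool held 1 Sertoli-marker and 23 interstitial-marker cells.

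Among the 7 low-Ddx4 pools of PND5 to PND8, PND8 replicate 1 had 950.0 CPM of Col1a1, 960 CPM of Col1a2 and 846 CPM of Col3a1, where the next pools had 452, 534 and 382 CPM. It held 2 Sertoli-marker and 12 interstitial-marker cells.

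In germ cells, E17.5 replicate 1 was the highest of the 6 pools of E16.5 to E18.5 for Col1a1 (96.7 CPM, the next at 53.01 CPM), Col1a2 (93.1 CPM, the next at 31.8 CPM), Col4a1 (48.7 CPM, the next at 15.4 CPM) and Col4a2 (46.9 CPM, the next at 28.3 CPM). Its Sertoli markers summed to 1084 CPM. The part of other cells in these values was not tested.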

How the results depend on the processing

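Counts of called collagen genes that moved by more than 1.5 times are given here, and the cause of these moves was not tested. The share of all genes called moved between fits as well. The counts in this section are therefore not set against the other genes, except where the text gives that share. For Negative against germ cells the count of lower genes (4) was 7 with no filter on low counts, 1 at E11.5 to E14.5, 11 at E15.5 to E18.5 and 1 to 5 with replicates or pools left out. After birth the count of lower genes (4) was 2 at a Ddx4 limit of 300 CPM and 2 to 5 with pools left out, and that of higher genes (29) was 18 to 29, the lowest without replicate 1. For fetal somatic cells in time the count of higher genes (1) was 4 with DESeq2, 3 with no filter, 2 as a slope per day, 3 with the pools of E13.5 to E15.5 kept in the fit, 6 in interstitial-marker cells and 5 at a marker share of 80%, and 0 to 2 with pools left out. Around birth, 3 genes were higher and 5 lower at a Ddx4 limit of 300 CPM, against 0 and 0, while 11.4% of all genes were higher and 7.88% lower, against 0% and 0%. For PND5 to PND8 against PND0 to PND2 there was 1 higher gene in interstitial-marker cells, 2 at a marker share of 80%, and 2 lower genes with DESeq2 and 8 at a Ddx4 limit of 300 CPM. No filter gave 1 lower gene in distal cells, DESeq2 1 higher gene at E7.5, and in late germ cells 1 to 2 genes fell with pools left out (2 without E11.5 replicate 2).

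With the pool as a block, the fit that uses the pairing of classes, 25 genes were higher and 5 lower in Negative cells and 26 higher and 3 lower in low-Ddx4 cells, and no other call of a named gene than those given above was changed. In that fit Col4a2 was at 0.13 for distal against proximal cells.

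Over the named genes, 2140 of 2281 alternative values kept direction and call, 30 lost and 13 gained the call, and 98 changed sign, all of these for genes that had not passed the test in the report. The following are log2 fold changes. Around birth, at a Ddx4 limit of 300 CPM, Col1a1 was at -1.73, Col4a1 at -1.52 and Col4a2 at -1.50, and without the E17.5 pools these were -0.65, -0.50 and -0.44. With no filter Col1a2 was at 0.0021. In interstitial-marker cells Col1a1 was at -0.067, and at -0.015 with a marker share of 80%. In Sertoli-marker cells Col1a2 was at 2.14 and 1.35, Col3a1 at 1.58 and 0.24 and Col4a2 at -0.14 and -0.16 with shares of 60% and 80%. With pools left out Col1a1 ranged from -0.61 to 0.44, Col1a2 from -0.57 to 0.38, Col3a1 from -0.70 to 0.38, Col4a1 from -0.16 to 0.98 and Col4a2 from -0.20 to 0.82.

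For PND5 to PND8 against PND0 to PND2, Col1a1 was at 0.13 and Col1a2 at 0.0022 with a Ddx4 limit of 300 CPM. In interstitial-marker cells, at shares of 60% and 80%, Col1a1 was at 0.40 and 0.42, Col1a2 at 0.31 and 0.41, Col3a1 at 0.30 and 0.25 and Col4a2 at 0.20 and 0.49, with Col4a1 at 0.44 at 80%. In Sertoli-marker cells at 80%, Col1a1 was at 0.70, Col1a2 at 0.040 and Col3a1 at 0.13. For late against early Negative cells, Col4a2 was at -0.031 in interstitial-marker cells, and with pools left out Col4a1 ranged from -0.031 to 0.90 and Col4a2 from -0.20 to 1.17.

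For distal against proximal cells, interstitial-marker cells gave -0.42 for Col1a1, -0.17 for Col1a2 and -0.87 for Col3a1, and with pools left out Col3a1 ranged from -0.15 to 0.71, Col4a1 from -0.40 to 0.25 and Col4a2 from -0.27 to 0.51. For Helq null against wild-type cells, interstitial-marker cells gave 0.22 for Col4a2, and -0.14 for Col4a1 at a share of 80%. With pools left out Col1a1 ranged from -0.21 to 0.12, Col3a1 from -0.053 to 0.15 and Col4a1 from -0.20 to 0.42. For E7.5 against E6.5 Col1a1 ranged from -0.58 to 3.15 and Col1a2 from -0.15 to 1.19. Fits with at least 20 cells per pool for distal against proximal cells, and with a pool left out for 1N against 4N cells, gave no value. The smallest low-Ddx4 pool held 12 cells.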
